A study of Mus musculus with 10 samples.

Results

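The Snrpn cluster is a block of imprinted genes on mouse chromosome 7 whose human counterpart is lost or silenced on the paternal chromosome in Prader-Willi syndrome. Its 5 protein-coding members Snrpn, Ndn, Magel2, Mkrn3 and Peg12 were taken by their symbols from a count table of 52632 genes, and all 5 were found. Imprinted genes of this cluster are transcribed from the chromosome inherited from the father. An imprinting centre at the first exon of Snurf-Snrpn is methylated on the maternal chromosome, where the cluster is kept silent. Ndn, Magel2, Mkrn3 and Peg12 lie together, far from that centre, and depend on it. SMCHD1 is a chromatin protein of the SMC family with an ATPase domain, known for silencing on the inactive X chromosome and at several imprinted clusters.

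The study sequenced polyadenylated RNA of 10 cultures of neural stem cells, each grown as an adherent monolayer from the cortices of an embryo at day 14.5 in medium with EGF and bFGF (20 ng/mL each). Female cultures were Smchd1GFP-E147A/+; XistdeltaA/+ (n = 2, litters 1 and 2) or Smchd1+/+; XistdeltaA/+ (n = 2, both litter 3). Male cultures were Smchd1GFP-E147A/+; XY (n = 3, litters 1, 1 and 3) or Smchd1+/+; XY (n = 3, litters 4, 1 and 3). The genotypes are abbreviated to E147A/+ and +/+. E147A is a substitution in the ATPase domain of SMCHD1, and the mutant allele alone carries a GFP tag, so tag and mutation cannot be told apart. XistdeltaA is a deletion allele of Xist, which all 4 female libraries carry. Per the labels every embryo had a Castaneus (Cast) father and a 129/C57 F1 mother, which would make every Cast allele paternal. In females, genotype and litter cannot be told apart.

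Total counts were 20648916 to 44519020 per library, and replicates differed by more than sampling noise. The 10 neural stem cell markers, among them Nes and Sox2, summed to 4920 to 6980 CPM (counts scaled to library size) and all were detected. Of 5 microglial markers, 4 (Ptprc, Cx3cr1, Aif1 and Csf1r) stayed below 1 CPM in every library. Smchd1 was at 117.9 ± 2.88 CPM (SD, n = 2) in female E147A/+, 155.7 ± 22.5 (n = 2) in female +/+, 114.5 ± 17.9 (n = 3) in male E147A/+ and 155.1 ± 34.9 (n = 3) in male +/+. The genotypes differed by a log2 fold change of -0.42 (SE 0.15; edgeR adjusted p = 0.786). Its level counts both alleles, so it does not check the genotype labels. In bulk cultures, fewer cells of a type and less RNA per cell cannot be told apart. The p-values measure the spread between cultures of separate embryos, some of them littermates.

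The 4 female libraries also had counts assigned to the 129 or the Cast allele, and at this cluster they did not all match the labelled cross. Among flanking genes outside the imprinted domain, Herc2 on the proximal side and Otud7a on the distal side gave Cast shares of 50.3% and 59.1% in female +/+ replicate 2. The same genes gave 1.25% and 17.3% in female E147A/+ replicate 1, 2.01% and 19.1% in E147A/+ replicate 2, and 1.97% and 23.3% in +/+ replicate 1. A biparental gene of a Cast F1 would be near 50%. Only female +/+ replicate 2 therefore had the Cast allele on both sides of the cluster, and the 2 alleles could be told apart in that library alone. That library did not match the labelled cross elsewhere: neighbours of the imprinted genes Zdbf2, Mest and Peg10 had median Cast shares of 0.929%, 0.437% and 0%. That its Cast allele at the cluster is the paternal one rests on the labels.

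The members and their start regions are shown because Snrpn alone had a negative log2 fold change between the genotypes, as described below. Whether Snrpn differed from the other members was not tested. In GRCm38, Snrpn (ENSMUSG00000102252) lies at chr7:59982495-60140219 on the minus strand with 12 merged exons. Ndn (ENSMUSG00000033585, chr7:62346569-62350262, plus strand), Magel2 (ENSMUSG00000056972, chr7:62377010-62381640, plus strand), Mkrn3 (ENSMUSG00000070527, chr7:62417593-62420139, minus strand) and Peg12 (ENSMUSG00000070526, chr7:62461871-62464510, minus strand) each have 1 exon. RefSeq start windows (GRCm38.p6) of 300 bases, 250 before and 50 after the annotated start, were available for all 5. The window of Ndn lies inside the gene span given above, so its RefSeq start differs from that of the counted gene. The level of Ndn per kilobase below uses the full span as exon length. Printed 5′ to 3′ on the gene's strand are the window shared by Snrpn and Snurf at the imprinting centre (chr7:60005150-60005449), that of Ndn (chr7:62348027-62348326) and that of Mkrn3 (chr7:62420104-62420403), with CG dinucleotides, the sites of DNA methylation, in capitals.
Snrpn: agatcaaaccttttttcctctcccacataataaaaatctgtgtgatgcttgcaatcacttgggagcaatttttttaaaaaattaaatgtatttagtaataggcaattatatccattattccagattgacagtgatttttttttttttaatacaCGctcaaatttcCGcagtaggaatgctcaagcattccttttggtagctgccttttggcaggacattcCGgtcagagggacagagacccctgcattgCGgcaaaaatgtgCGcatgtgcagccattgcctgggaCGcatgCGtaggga
Ndn: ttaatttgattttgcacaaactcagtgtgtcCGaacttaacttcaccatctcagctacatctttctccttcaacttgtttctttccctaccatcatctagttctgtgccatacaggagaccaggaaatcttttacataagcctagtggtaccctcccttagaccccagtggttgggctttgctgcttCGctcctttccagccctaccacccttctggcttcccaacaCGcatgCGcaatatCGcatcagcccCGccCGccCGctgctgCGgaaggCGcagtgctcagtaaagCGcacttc
Mkrn3: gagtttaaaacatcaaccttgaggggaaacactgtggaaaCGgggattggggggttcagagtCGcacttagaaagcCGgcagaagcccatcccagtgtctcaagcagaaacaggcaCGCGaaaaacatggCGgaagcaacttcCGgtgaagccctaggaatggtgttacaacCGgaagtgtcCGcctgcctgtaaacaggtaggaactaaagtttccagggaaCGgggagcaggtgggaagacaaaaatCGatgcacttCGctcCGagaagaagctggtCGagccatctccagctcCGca

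The Snrpn window held 7 CG dinucleotides, the median of all 32817 RefSeq start windows of this length. The counts were 11 for Ndn, 10 for Magel2, 15 for Mkrn3 and 12 for Peg12. Windows with at least as many made up 41.4%, 43.4%, 34.6% and 39.6% of all windows. The letters TGCCGC or their reverse complement GCGGCA, the motif that the zinc finger protein ZFP57 binds at methylated imprinting centres, were found once, in the Snrpn window at position 249 counted from its 5′ end. They occur in 11.6% of all windows, and the 4 other members' windows held neither. The palindrome CGCATGCG, the core of the NRF1 motif, occurred once in the Snrpn window (position 287) and once in that of Ndn (position 228), and its CG pairs are among those counted. It also occurred in the 3 other Snrpn start windows, against 1.86% of all windows, and in none of those of Magel2, Mkrn3 and Peg12. Those 3 Snrpn windows are similar to each other over long stretches, the palindrome included, so their matches are not independent. This palindrome was searched for after the sequences had been read, and a match of letters is not a measured binding site.

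The first question was how strongly each gene was transcribed in these cultures. In CPM per kilobase of exon, the mean level over 10 libraries was 37.7 for Ndn (25.3 to 57.9), 36.6 for Peg12 (13.2 to 64.0), 14.3 for Snrpn (9.67 to 19.3), 7.81 for Mkrn3 (4.46 to 11.3) and 0.606 for Magel2 (0.233 to 1.76). Each neighbouring pair from Ndn to Mkrn3 in this order had overlapping ranges, and Magel2 lay below every other member in every library. Ndn stood at the 91.6th percentile of tested genes on this scale and Magel2 at the 20.8th. All 5 passed the filter on low counts, which kept 17110 genes.

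The second question was whether the levels differed by Smchd1 genotype. Ndn, Magel2 and Mkrn3 were higher in each of the 5 E147A/+ libraries than in each of the 5 +/+ libraries, by 1.54-fold to 2.59-fold. Peg12 leaned the same way with overlap in males, and Snrpn, nearest the imprinting centre, did not. In edgeR's quasi-likelihood test with Benjamini-Hochberg adjustment over all genes, 0 of the 5 passed 0.05 over both sexes, where 0.0818% of genes did. At an unadjusted p under 0.05 the count was 4 of 5, all with the higher level in E147A/+, against 5.9% of genes in either direction and 3.05% higher. DESeq2 called Mkrn3 and Magel2 (0.346% of genes called higher) and limma-voom with quality weights called Mkrn3 (0.0877% of genes called higher).

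**Figure D1:**
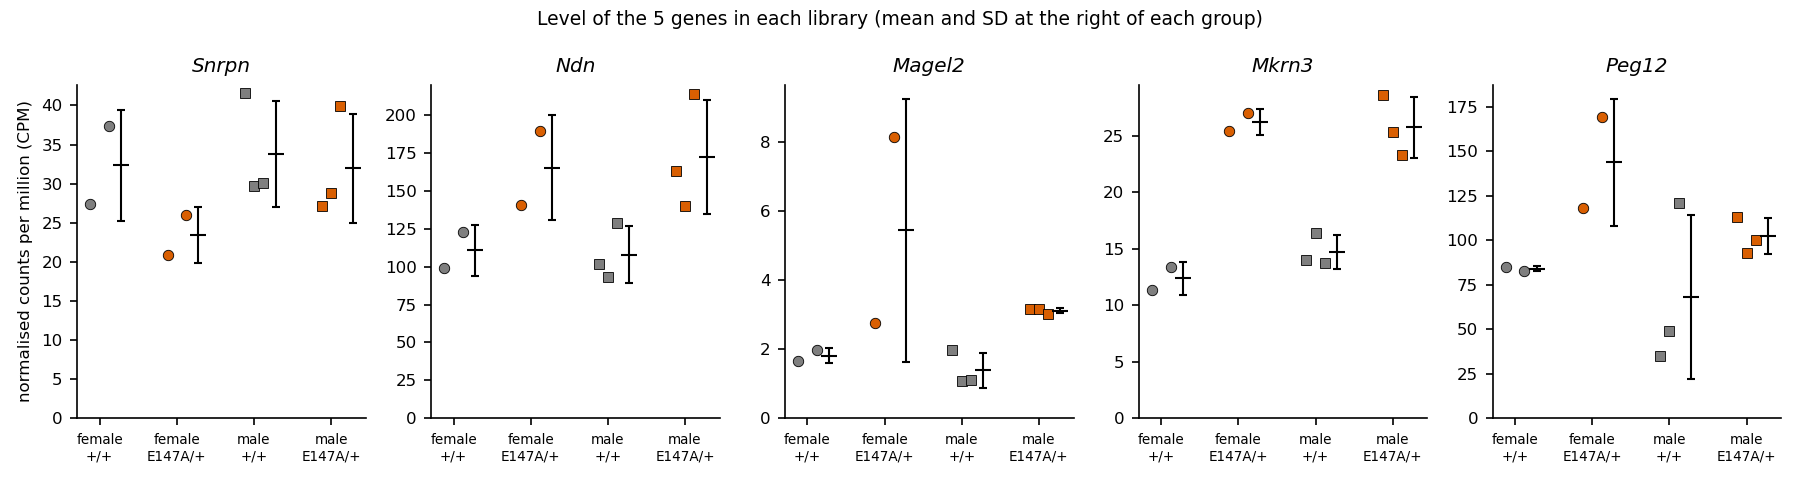
Normalised level in CPM (vertical axis, linear from 0) of the 5 genes in each of the 10 libraries, by group (circles, females; squares, males; orange, E147A/+; grey, +/+), with the mean and SD beside each group. Mkrn3 lies at 23.3 to 28.7 CPM in all E147A/+ libraries and 11.4 to 16.4 in all +/+ libraries, while Snrpn overlaps between the genotypes.

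Mkrn3, which encodes a makorin RING-finger protein with E3 ubiquitin ligase activity and is known as a brake on puberty, had the smallest p of the 5. It was at 25.4 and 27.0 CPM in the female E147A/+ libraries and 28.7, 25.4 and 23.3 in the male ones. In +/+ it was at 11.4 and 13.4 in females and 14.0, 16.4 and 13.7 in males. The lowest E147A/+ library was 6.87 CPM above the highest +/+ library, with no overlap in either sex. Group means were 26.2 ± 1.14 (SD, n = 2) against 12.4 ± 1.46 (n = 2) in females and 25.8 ± 2.70 (n = 3) against 14.7 ± 1.48 (n = 3) in males. With the sexes combined, the log2 fold change was 0.94 (SE 0.14; edgeR unadjusted p = 6.76e-05, rank 19 of 17110, adjusted p = 0.0609). The adjusted p was 1.03e-08 in DESeq2 and 0.0254 in limma-voom. The log2 fold change was 1.08 (SE 0.22) in females and 0.81 (SE 0.18) in males, with edgeR adjusted p-values of 0.470 and 0.637, where 0.0117% and 0.0234% of genes passed. In DESeq2 Mkrn3 passed in females (adjusted p = 0.000642; 0.137% of genes called higher) and in males (adjusted p = 0.00195; 0.187% of genes called higher).

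Magel2, which encodes a MAGE-family protein that works with the ubiquitin ligase TRIM27 in endosomal sorting, was the least abundant. Its CPM was 2.75 and 8.14 in female E147A/+, and 3.16, 3.18 and 3.03 in male E147A/+. In +/+ it was 1.66 and 1.98 in females and 1.97, 1.08 and 1.11 in males. Every E147A/+ library exceeded every +/+ library, and female E147A/+ replicate 2 stood far above the others. These levels rested on 23 to 352 counts. The log2 fold change was 1.37 (SE 0.36; edgeR unadjusted p = 0.00337, adjusted p = 0.547), and DESeq2 gave an adjusted p of 0.0328. Without female E147A/+ replicate 2 it was 0.90 over both sexes, and in females it went from 1.58 to 0.61. With litter as a covariate the female estimate was 0.57 (SE 0.59; edgeR adjusted p = 1.0). It takes the litter difference from the males, and female E147A/+ replicate 2, alone in litter 2, adds nothing to it.

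Ndn, which encodes the MAGE-family protein necdin, a growth suppressor of differentiating neurons, was the most abundant. In E147A/+ it was at 140.9 and 189.6 CPM in females and 163.1, 140.2 and 213.8 in males. In +/+ it was at 98.8 and 122.7 in females and 101.4, 93.5 and 129.0 in males. The genotypes did not overlap, but the gap between the lowest E147A/+ and the highest +/+ library was 11.2 CPM, less than the SD within each group (16.9 to 37.6). The log2 fold change was 0.63 (SE 0.17; edgeR unadjusted p = 0.0039, adjusted p = 0.547). It was 0.58 (SE 0.26) in females and 0.67 (SE 0.21) in males. With 1 library left out the female value ranged from 0.36, without female E147A/+ replicate 2, to 0.78. Neither DESeq2 (adjusted p = 0.118) nor limma-voom (0.259) called it.

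Peg12, an intronless gene of the FRAT family whose proteins bind the kinase GSK-3 in Wnt signalling, varied most among the +/+ males. It was at 118 and 169 CPM in female E147A/+ against 84.9 and 82.9 in female +/+, without overlap. In males it was at 113, 93.0 and 100.4 in E147A/+ and 34.8, 48.8 and 120.8 in +/+. Male +/+ replicate 3 exceeded all male E147A/+ libraries. With the sexes combined the difference in log2 was 0.68 (SE 0.30; edgeR unadjusted p = 0.0496, adjusted p = 0.821), and without that library it was 1.03 with an adjusted p of 0.0944.

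Snrpn, which encodes SmN, a core protein of small nuclear ribonucleoproteins in neural cells, was the only member with a negative log2 fold change. It was at 20.9 and 25.9 CPM in female E147A/+ and 27.4 and 37.4 in female +/+. In males it was at 27.1, 28.8 and 39.9 in E147A/+ and 41.6, 29.7 and 30.1 in +/+. The female values were lower in E147A/+ without overlap, and the male values overlapped. The log2 fold change was -0.27 (SE 0.18; edgeR adjusted p = 0.824) over both sexes, -0.47 (SE 0.28) in females and -0.08 (SE 0.23) in males. With 1 library left out the female value ranged from -0.68 to -0.22. Snrpn shares its locus with rows for Gm38393 on the same strand (116 to 462 counts) and for Snurf, which had 0 counts in every library, so counts of these overlapping transcripts are uncertain.

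With 5 libraries against 5, 0.695% of tested genes had all E147A/+ libraries above all +/+ libraries, and 3 of the 5 members did. The members were chosen with earlier results of these data known, and those 3 lie side by side and varied together. The comparison with all genes is therefore a description and no test. With 2 against 2 females such separation was common. It held for 4 members higher and 1 lower, beside 21.8% and 19.3% of genes. In males 3 members were separated higher, beside 3.2% of genes. The members' median log2 fold change was 0.68 over both sexes, 0.78 in females and 0.67 in males, with 4 of 5 positive each time. Of all tested genes 48%, 48.8% and 47.3% were positive, with medians of -0.01, -0.01 and -0.02.

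**Figure D2:**
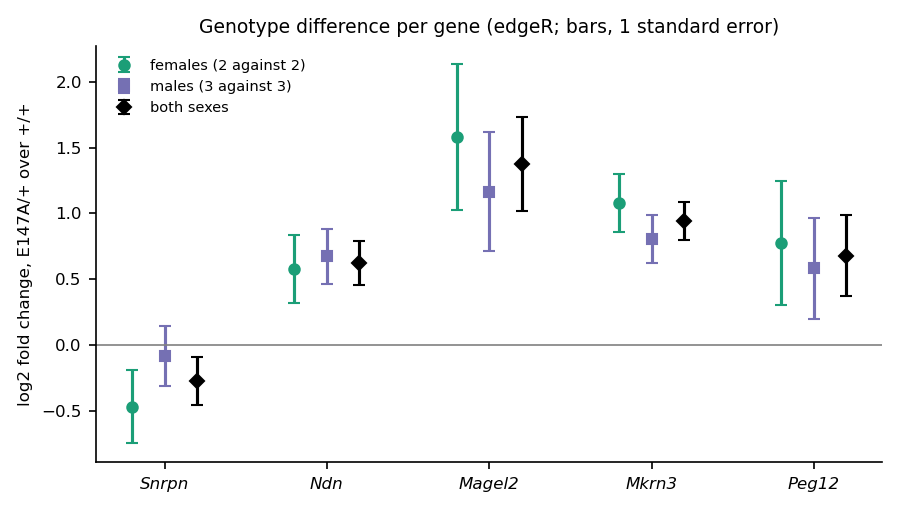
Log2 fold change of E147A/+ over +/+ (vertical axis) for each gene in females (circles, 2 against 2), in males (squares, 3 against 3) and over both sexes (diamonds), with bars of 1 standard error from edgeR. Magel2, Mkrn3, Ndn and Peg12 are above 0 in each, and Snrpn is below 0 in each (-0.47, -0.08 and -0.27).

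No member's genotype difference was shown to differ between the sexes. The interaction was -0.39 (SE 0.36) for Snrpn, -0.10 (SE 0.33) for Ndn, 0.41 (SE 0.70) for Magel2, 0.27 (SE 0.28) for Mkrn3 and 0.19 (SE 0.61) for Peg12, as the female minus the male log2 fold change, each with an adjusted p of 0.999 in edgeR. Across the genome edgeR called 0 genes for this interaction (0% of tested genes; 314 at an unadjusted p under 0.05), DESeq2 2 and limma-voom 0.

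Litter could be held fixed only among males. Within litter 1, 2 E147A/+ cultures against 1 +/+ culture differed by 0.70 in log2 CPM for Mkrn3, 0.69 for Ndn, 1.22 for Magel2, 1.06 for Peg12 and -0.08 for Snrpn. Within litter 3, 1 against 1, the differences were 0.74, 0.73, 1.1, -0.27 and 0.40 in the same order. Mkrn3, Ndn and Magel2 thus differed in the same direction in both litters, and Peg12 and Snrpn changed sign between them. These within-litter values are given with no test. With litter as a covariate the male log2 fold change was 0.74 (SE 0.20) for Mkrn3, 0.71 (SE 0.17) for Ndn and 1.5 (SE 0.38) for Magel2. The unadjusted edgeR p-values were 0.0088, 0.0037 and 0.0058, and each adjusted p was 0.703. With litter as a covariate the estimate for the sexes combined was a log2 fold change of 0.77 (SE 0.20) for Mkrn3, 0.77 (SE 0.16) for Ndn, 1.04 (SE 0.36) for Magel2, 0.77 (SE 0.32) for Peg12 and -0.10 (SE 0.22) for Snrpn, and none passed (adjusted p 0.852 to 0.980, edgeR). The female share in these estimates rests on litter differences among males.

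Markers of other cells were set beside these values. The 10 neuronal markers summed to 33.3 to 62.3 CPM in female E147A/+ and 41.1 to 89.0 in female +/+, and to 86.9 to 132 in male E147A/+ and 54.4 to 116 in male +/+. In females 2 of the 10 had a positive log2 fold change and in males 9 of 10, while the members were positive in 4 of 5 in both sexes. None of the 10 passed the test over both sexes. Of 6 oligodendrocyte-lineage markers 5 were negative over both sexes, with a median log2 fold change of -1.42. At an unadjusted p under 0.05 in edgeR there were 3, beside 5.9% of genes. They summed to 1350 to 2030 CPM, most of it Olig1 and Olig2. Pdgfra was at 2.84 to 24.0 CPM in E147A/+ and 14.0 to 85.0 in +/+, and Sox10 at 0.439 to 6.45 and 2.83 to 32.6. Gpr17 fell (log2 fold change -4.98, edgeR adjusted p = 0.0249), at 0 to 0.134 CPM in E147A/+ and 0.955 to 4.62 in +/+. The 4 astrocyte markers summed to 103 to 118 CPM in female E147A/+ and 40.2 to 77.8 in female +/+, without overlap and higher in E147A/+ as were Ndn, Magel2, Mkrn3 and Peg12. In males they summed to 36.1 to 62.5 in E147A/+ and 37.9 to 78.6 in +/+, with overlap, and none of the 4 passed over both sexes. The 4 endothelial markers (0.948 to 1.96 CPM against 3.18 to 3.21) and the 5 mesenchymal or meningeal markers (4.88 to 7.88 against 8.53 to 9.27) were lower in female E147A/+ without overlap. In males both overlapped, at 0.636 to 2.49 against 0.939 to 3.75 and at 5.22 to 19.7 against 3.2 to 25.1. Over both sexes 3 of 4 and 4 of 5 were negative, with median log2 fold changes of -1.05 and -0.985, and none passed. The part of these cell types in the members' levels was not tested.

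The third question was how far along the chromosome the difference reached. Within 5 Mb of the cluster 58 other genes were tested. Of these, 18 had a positive and 40 a negative log2 fold change, with a median of -0.11, and 0 were separated between the genotypes in either direction. Such separation held for 0.695% of all tested genes higher and 0.742% lower, so 0 among 58 genes says little. Of 22 listed neighbours 19 were tested and 0 passed, with 4 positive and 15 negative. At an unadjusted p under 0.05 there were 3, all lower in E147A/+ with overlapping libraries: Herc2 at -0.62 (SE 0.17), Mtmr10 at -0.54 (SE 0.18) and Mphosph10 at -0.43 (SE 0.17), named after their values were seen. The edgeR unadjusted p-values were 0.0046, 0.014 and 0.029, and the adjusted ones were 0.606, 0.732 and 0.803. Luzp2, Tubgcp5, Cyfip1 and Nipa2, the first of that list, had values of -0.78 (SE 0.74), -0.16 (SE 0.13), -0.25 (SE 0.12) and -0.31 (SE 0.16).

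Of the listed imprinted transcripts of the same domain, Snhg14, the long host transcript of small nucleolar RNAs that reads into Ube3a antisense, was at 0.12 (SE 0.29). Ube3a, the ubiquitin ligase gene silenced on the paternal chromosome in mature neurons, was at -0.13 (SE 0.18), and Atp10a, a flippase gene, at 0.25 (SE 0.33). None of these 3 passed. Snurf, which encodes a short protein from the same transcript as SmN, had 0 counts in every library, and Ipw was not analysed here. The use of strand in counting is not given in the sources used here, so reads of Ube3a and of Snhg14 antisense to it cannot be told apart.

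**Figure D3:**
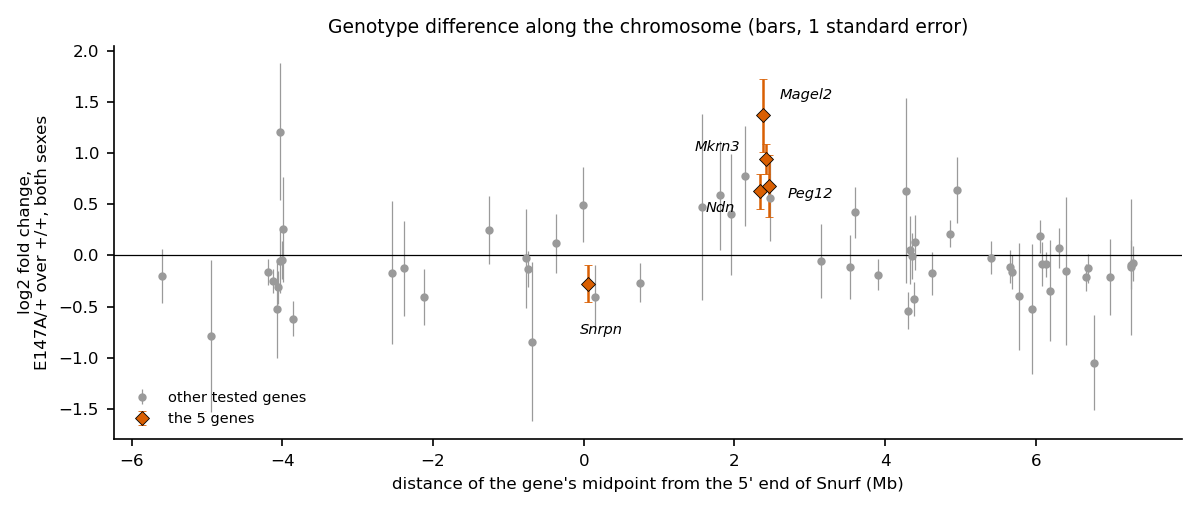
Log2 fold change of E147A/+ over +/+ over both sexes (vertical axis; bars, 1 standard error) against the distance of each tested gene's midpoint from the 5′ end of Snurf (horizontal axis, Mb). The 4 members about 2.4 Mb away lie between 0.63 and 1.37, Snrpn is at -0.27, and of the 58 other genes (grey) 40 are below 0.

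The genes that work with or resemble the members were listed too, and none passed in edgeR. Of 10 paralogues 4 were positive, with a median of -0.08: Snrpb, the paralogue of Snrpn, was at -0.26 (SE 0.16), and the MAGE genes Maged1, Maged2 and Mageh1 were at 0.09, -0.02 and 0.18. Of 12 partners of MAGEL2 and necdin 6 were positive, with a median of -0.0014, and Trim27, Usp7 and Washc1 were at 0.01, 0.05 and 0.05. Of 13 factors that maintain or read imprints 9 were positive, with a median of 0.05. Zfp57, a zinc finger protein that keeps methylation at imprinting centres, was at 0.85 (SE 0.33, adjusted p = 0.803), and its relative Zfp445 at 0.21 (SE 0.20). The corepressor gene Trim28 was at -0.12 (SE 0.16) and the methyltransferase gene Setdb1 at 0.09 (SE 0.14). Of 14 paternally expressed genes in other clusters 4 were positive, with a median of -0.12, and Peg3 was at -0.30 (SE 0.30).

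Across the 10 libraries, Ndn, Magel2, Mkrn3 and Peg12 varied together. Pearson's r of log2 CPM was 0.751 for Ndn with Magel2, 0.758 for Ndn with Mkrn3, 0.723 for Ndn with Peg12, 0.746 for Magel2 with Mkrn3, 0.569 for Magel2 with Peg12 and 0.528 for Mkrn3 with Peg12. For Snrpn it was -0.067 to -0.564 with the others. These libraries share genotype, litter and sex structure, so the values describe and do not test. The genes whose log2 CPM over 10 libraries was most like the members' mean z score were Gm11249 (r = 0.932), Crtac1 (0.932), Hlx (0.925), Pcdha1 (0.921) and Pcdha11 (0.921). Of these, Pcdha1 and Pcdha11 belong to the alpha protocadherin cluster, and their log2 fold changes were 6.86 and 2.91 (adjusted p = 0.0608 and 0.0892, edgeR).

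The last question was which parental allele was read and whether the silent one contributed in E147A/+ libraries. In female +/+ replicate 2, the library with Cast on both sides of the cluster, all 5 genes were read mainly from Cast, the paternal allele by the labels. For Snrpn, 0 of 415 allele-assigned counts were 129, with a 95% Wilson upper limit of 0.917% (0.723% by a floor of 3 counts). For Mkrn3 2 of 115 were 129 (1.74%, 95% Wilson interval 0.478% to 6.12%), and for Ndn 11 of 287 (3.83%, 2.15% to 6.73%). For Peg12 46 of 986 were 129 (4.67%, 3.52% to 6.17%), and for Magel2 1 of 14 (7.14%, 1.27% to 31.5%). The intervals of Ndn and Peg12 lay above the limit for Snrpn and overlapped each other. Summed over the 4 genes with at least 10 allele-assigned counts in every female library (all but Magel2), the 129 share was 59 of 1803, or 3.27% (2.55% to 4.2%). Without Peg12, which gave most of these counts, it was 1.59%. Intervals and limits cover counting error only. By the labels the mother was a 129/C57 F1, and how reads of a C57 allele were assigned is not given. The 129 share is therefore not shown to be the whole maternal share.

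The neighbouring transcripts of that library gave a scale. Snhg14 was 98.8% Cast (247 of 250 counts, 96.5% to 99.6%), and the rows Gm38393, A330076H08Rik and Gm9801 inside the domain were 99.2%, 100% and 100% Cast. A230057D06Rik was 84.2% Cast on only 19 counts (62.4% to 94.5%). Ube3a was 42.3% Cast (38.8% to 45.9%) and Atp10a 46.3% (39.6% to 53.2%), as biallelic genes would be. The 38 genes within 10 Mb outside the domain had a median of 50.3%. The strong Cast share of the members thus ended between Snhg14 and Ube3a on one side and between Peg12 and Otud7a on the other.

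In the other 3 female libraries nearly every allele-assigned count of the members was 129. The Cast share summed over the same 4 genes was 17 of 2388 (0.712%, 0.445% to 1.14%) in E147A/+ replicate 1, 9 of 3285 (0.274%, 0.144% to 0.52%) in E147A/+ replicate 2 and 12 of 1266 (0.948%, 0.543% to 1.65%) in +/+ replicate 1. Per gene it was 0% to 1.46%. As the flanking genes show no Cast allele there, both parental alleles would be assigned to 129, and these shares would then measure wrong assignment to Cast. They give no measure of wrong assignment to 129, which was not tested as a source of the 3.27%.

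E147A/+ replicate 1 changed in allele composition near the cluster. Its 9 proximal neighbours had a median Cast share of 4.33% (0% to 17.5%) and Otud7a, on the distal side, 17.3%, whereas Klf13, the next gene, had 56.5% and the 28 genes from Klf13 on had a median of 51.9%. Over all 38 neighbours its median was 47.9%, which would have put it among the libraries with Cast. It was therefore read by its nearest flanking genes, a rule chosen after the data were seen. The nearest 5 genes on the proximal side had a median Cast share of 13.0% in E147A/+ replicate 1. The same 5 were at 14.4% in E147A/+ replicate 2, 16.6% in +/+ replicate 1 and 50.3% in +/+ replicate 2. The medians over all 38 were 0.867% in E147A/+ replicate 2 and 0.704% in +/+ replicate 1.

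**Figure D4:**
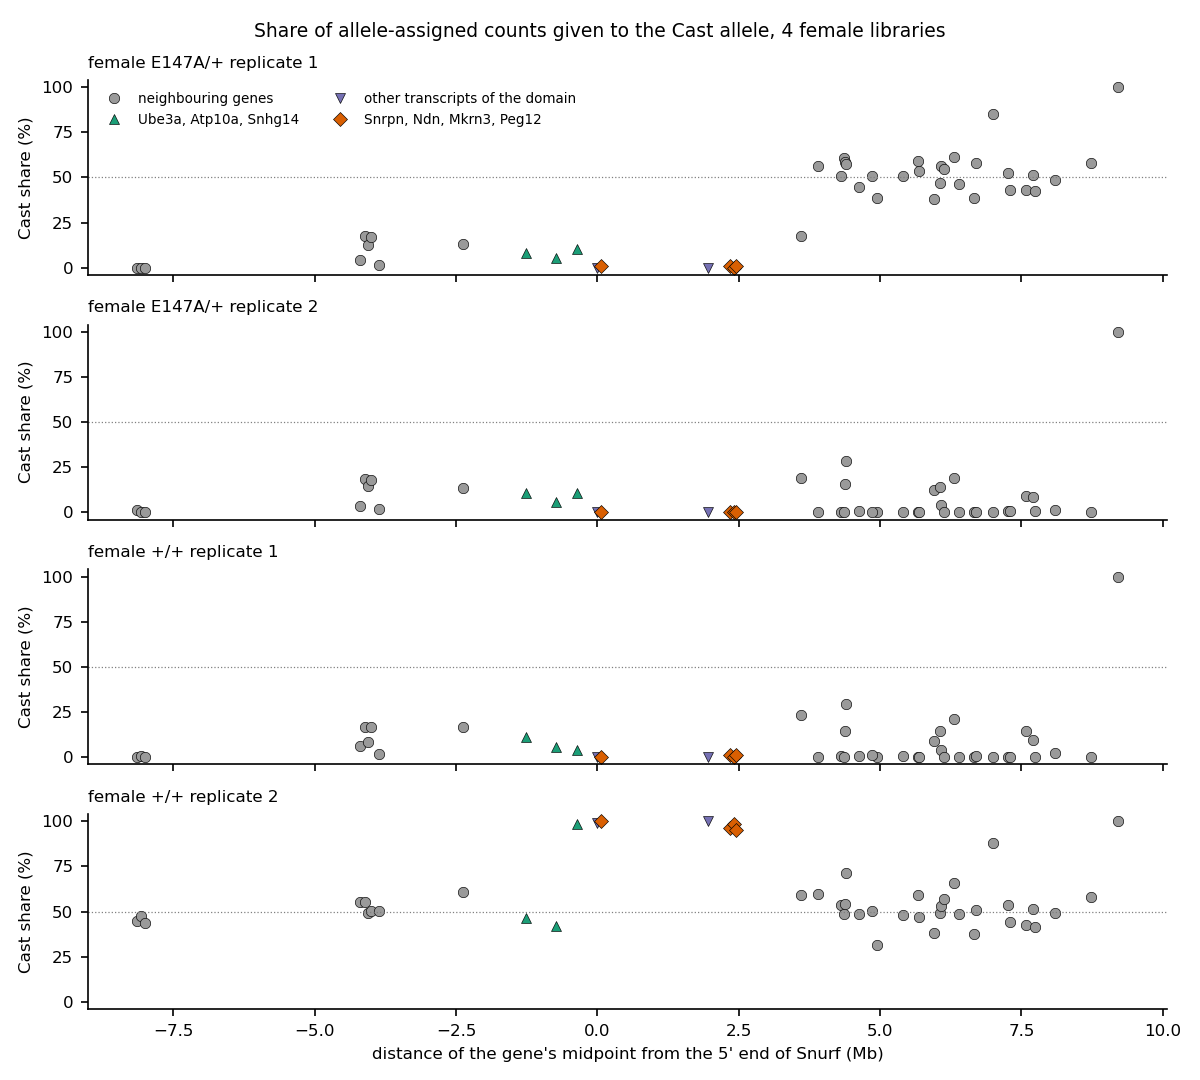
Share of allele-assigned counts given to Cast (vertical axis, percent) against distance from the 5′ end of Snurf (horizontal axis, Mb) in the 4 female libraries, for genes with at least 20 such counts in each library; the dotted line marks 50%. The members (diamonds) are at 95.3% to 100% in +/+ replicate 2 and at 0% to 1.46% in the other 3 libraries. The nearest genes on both sides are also low there, but in E147A/+ replicate 1 the distal genes from Klf13 on have a median of 51.9%.

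Whether the silent maternal allele contributed in E147A/+ libraries therefore could not be read at this cluster, since neither female E147A/+ library carried Cast there and allele-assigned counts were used for females only. The higher total levels of Ndn, Magel2 and Mkrn3 cannot be divided between the parental alleles. The strain of the allele read also differed among the female libraries and was not determined in the males. Its part in the total levels was not tested. At other loci the E147A/+ libraries did carry Cast. Among listed paternally expressed genes with at least 20 allele-assigned counts and a Cast share of 35% to 65% among neighbours within 2 Mb, the 129 share was under 5% for 4 of 5 in E147A/+ replicate 1 and 5 of 6 in E147A/+ replicate 2. It was under 5% for 3 of 3 in +/+ replicate 1 and 2 of 4 in +/+ replicate 2. The exceptions were Inpp5f (39.9% in E147A/+ replicate 1 and 34.7% in +/+ replicate 2) and Dlk1 (79.2% in E147A/+ replicate 2 and 40.9% in +/+ replicate 2). Inpp5f also gave 38.6% and 39.2% Cast in the 2 female libraries whose neighbours there carried almost none (0.138% and 0.158%). Impact, counted under 5% in E147A/+ replicate 2 and +/+ replicate 1, gave 63.9% and 68.4% Cast in the other 2, whose neighbours were at 24.5% and 23.4%. The accuracy of allele assignment at these genes was not tested. The Dlk1 shares rest on 24 and 22 counts, with intervals of 59.5% to 90.8% and 23.3% to 61.3%.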

How the data were processed

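The values are raw counts per gene as the authors deposited them, with counts split by 129 and Cast allele in the 4 female libraries among the 10. The labels' protocols name TruSeq stranded poly(A) libraries and 80 bp paired-end reads. The submitters' processing notes name Trim Galore 0.4.4, HISAT2 2.0.5, featureCounts, edgeR 3.24.0, R 3.5.1 and GRCm38. The use of strand and the allele assignment are not given in the sources used here. Of 52632 gene IDs 52403 were found in GENCODE M21, used for exon lengths.

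Genes were kept by filterByExpr (17110), scaled by TMM and compared by quasi-likelihood F tests (edgeR 4.0.16, R 4.3.3) on 1 mean per sex and genotype, with 6 residual degrees of freedom, adjusted by Benjamini-Hochberg at 0.05 over all genes. Each SE is the size of the log2 fold change over the root of F. Log2 CPM used a prior count of 2, and within-litter differences a pseudocount of 0.5. Alternatives included DESeq2 1.42.0 and limma 3.58.1 (voom with quality weights). The code was tested on simulated counts. Depth was 20648916 to 44519020 counts, and shares have 95% Wilson intervals with a floor of 3 counts.

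All members were named in full, and of each list those past the threshold and at most 4 others in list order. Also named were Smchd1, the 3 neighbours at an unadjusted p under 0.05 in edgeR, and genes given for their allele shares. The members and lists were chosen with earlier results of these data known. The permutation test of the silent-allele share and the tests of 129 and Cast counts were planned for libraries with Cast at the cluster. They were not run, since only 1 library met that. The values of a neighbouring gene are not reported here.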

Additional observations from a re-analysis of the deposited data

How the results depend on the processing

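Over 18 settings, counting every alternative and each left-out library, the log2 fold change over both sexes stayed positive for Mkrn3 (0.77 to 1.01), Ndn (0.53 to 0.77), Magel2 (0.90 to 1.68) and Peg12 (0.52 to 1.03), and negative for Snrpn (-0.37 to -0.10). The adjusted p ranged over these settings from 1.03e-08 to 0.980 for Mkrn3 and from 0.0328 to 0.980 for Magel2. Of 365 alternatives over all contrasts, 346 kept direction and side of the threshold, 5 (DESeq2 and limma-voom, given with the genes) passed it and 14 changed sign without passing. The causes were not tested. In males Snrpn was at 0.12 with the litter covariate and ranged from -0.27 to 0.098 with 1 library left out, positive without E147A/+ replicate 1 (0.027) or +/+ replicate 1 (0.098). The interaction of Ndn was 0.12 and that of Magel2 -0.93 with the litter covariate, and that of Peg12 was -0.26 in limma-voom and -0.037 with the replicate block. With 1 library left out the interaction ranged from -0.34 to 0.086 for Ndn, from -0.58 to 0.98 for Magel2 and from -0.51 to 0.51 for Peg12.

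The count of genes past the threshold was 14 over both sexes, 2 in females, 4 in males and 0 for the interaction. DESeq2 gave 113, 46, 48 and 2, limma-voom 29 over both sexes and 9 in males, and no filter on low counts 33, 8 and 14. At least 10 counts in every library gave 9 over both sexes. Fitting only the groups compared gave 1 in females and 1 in males, which is fewer samples by construction. The litter covariate gave 3, 0 and 2 and, for the interaction, 1. With 1 library left out the counts were 2 to 12 over both sexes, 0 to 2 in females, 1 to 4 in males and 0 to 1 for the interaction.

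Replicate numbers come from the titles and mark different embryos. Deviations of same-numbered libraries correlated at -0.304 in females and -0.238, 0.416 and 0.0341 in males, so the numbers were not taken to pair samples. The replicate block gave 5 genes over both sexes, 0 in females (836 at an unadjusted p under 0.05, edgeR) and 2 in males. Crossing the female numbers, an alternative added after the data were seen, gave 6 over both sexes and 0 in females (1020 unadjusted), with -0.037 for the interaction of Peg12. No paired analysis was possible for the allele shares because only 1 library carried Cast at the cluster, and the alternatives of the allele-count tests were not run. The summed 129 share of 3.27% was 2.56% as a mean over genes, 3.27% at a minimum of 50 counts and 1.59% without Peg12. The 14 allele-assigned counts of Magel2 leave its 129 share between 1.27% and 31.5%.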

Other observations

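Between Snrpn and Ndn the domain holds several transcripts that are not members, picked here after their values were seen. The noncoding or unnamed rows B230209E15Rik, A230057D06Rik, A330076H08Rik and Gm9801, which lie 1.57 to 2.15 Mb from the 5′ end of Snurf and directly proximal to Ndn, had log2 fold changes of 0.48 (SE 0.91), 0.59 (SE 0.53), 0.40 (SE 0.59) and 0.78 (SE 0.49) over both sexes. None passed in edgeR (adjusted p 0.824 to 0.920), and their libraries overlapped between the genotypes. Gm7367 and Gm10297, nearer to Snrpn, were at -0.41 (SE 0.32) and -0.27 (SE 0.19), while Gm38393, which overlaps Snrpn on the same strand, was at 0.50 (SE 0.37).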
